A study of Mus musculus with 6 samples.

Results

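Chemokine transcripts were examined in immortalized mouse keratinocytes with and without the α3 integrin subunit. The 10 genes were chosen by name from those a keratinocyte is known to make: Cxcl1, Cxcl2, Cxcl5, Cxcl10, Cxcl16, Ccl2, Ccl7, Ccl8, Ccl20 and Cx3cl1. All 10 were found among the 49315 mouse gene IDs of the deposited count table, by their GENCODE M21 symbols. Both groups are lines of one descent (MK-546, MK-/-), whose mouse α3 integrin is missing. The Control group was MK-546 itself, and the 3A group was MK-546-ha3A (MK-/-:ha3), the same cells given human α3. Each group had 3 libraries, named Control 1 to 3 and 3A 1 to 3, from untreated cells grown below confluence in low-calcium medium on dishes coated with collagen. Since each group is 1 line, the presence of α3 and what else sets the lines apart cannot be told apart. The labels do not say that libraries came from separate cultures, so p-values measure the spread between these libraries, which may be technical.

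Chemokines are small secreted or membrane-tethered proteins that bind G protein-coupled receptors on leukocytes and direct their migration. In skin, keratinocytes release them after injury or infection, and many of their genes are switched on by interleukin-1, tumour necrosis factor or interferon through NF-kappaB, STAT and IRF transcription factors. CXC chemokines with the ELR motif, such as Cxcl1, Cxcl2 and Cxcl5, attract neutrophils through Cxcr2. Ccl2 and Ccl7 attract monocytes and other leukocytes, and Ccl8 attracts leukocytes. Cxcl10 attracts activated T cells through Cxcr3, and Ccl20 attracts Ccr6-bearing cells. Cxcl16 and Cx3cl1 are made as transmembrane proteins and are released by proteolytic shedding.

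Total counts per library ranged from 25634204 to 36245240. Levels are given as CPM, the count scaled to a fixed library total, on TMM-scaled library sizes, and CPM per kb of exon is used wherever genes are compared with each other. Control 1 stood apart from the other Control libraries: across genes, the correlation of log2 CPM was 0.957 for Control 1 and Control 2, 0.953 for Control 1 and Control 3, 0.988 for Control 2 and Control 3, and 0.955 for Control 1 and 3A 2 (genes are not independent replicates). The mitochondrially encoded mRNA share was 1.16% in Control 1, 4.16% and 4.69% in Control 2 and Control 3, and between 1.23% and 1.58% in 3A. Of the 6 keratinocyte markers checked, all were measured, with a summed level of 8476 to 9770 CPM in Control and 6246 to 7894 CPM in 3A. Mouse Itga3, the altered gene, averaged 39.6 CPM in Control and 69.4 CPM in 3A (log2 fold change 0.81, edgeR adjusted p = 0.0362); some human α3 reads may be counted there in 3A. The Control level goes against a line without α3 transcript; gene counts do not show which exons the reads came from, so the direction of every comparison rests on the labels. Trp63, the transcription factor gene of basal keratinocytes, fell (log2 fold change -0.61, adjusted p = 0.0491).

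The chemokine transcripts differed between the lines in both directions. Cxcl5 rose 2.80-fold in 3A, while Ccl8 fell 15.5-fold, Cxcl10 2.34-fold and Ccl2 2.08-fold. Differences were tested with edgeR's quasi-likelihood test, fitted over 13704 genes and called at a Benjamini-Hochberg adjusted p under 0.05. Of the 10 genes, 9 passed the low-count filter. Ccl8 passed it only through the Control libraries, where it is high, so its fall and the counts that hold it are given as a description. Of the 9, 1 was called higher and 3 lower, while over all tested genes 7.52% were called higher and 7.39% lower (14.9% in either direction). The groups did not overlap for 5 of the 9 genes, against 36.1% of all tested genes. The median log2 fold change was 0.15 over the 9 genes and -0.02 over all tested genes. Without Control 1 the count was again 1 higher and 3 lower, while 52.0% of all tested genes were then called. Leaving out any other library gave 1 higher and 2 lower, the gene lost being Cxcl10.

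**Figure D1:**
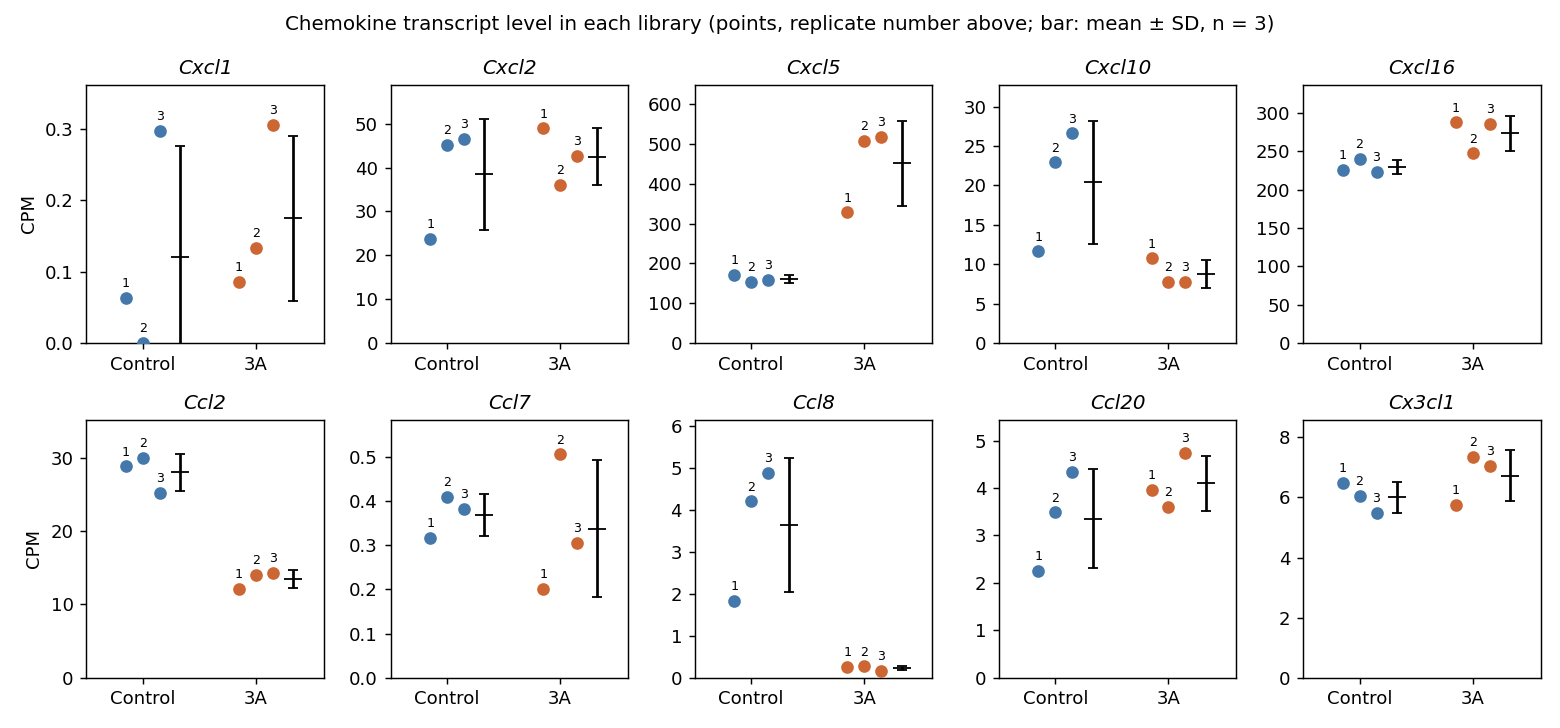
Transcript level (CPM, vertical axes from 0, a scale of its own for each gene) of the 10 chemokine genes in the 3 Control and 3 3A libraries. Points are libraries with their replicate number, and bars are mean ± SD (the bar of Cxcl1 in Control is cut at 0); the groups are separate for Cxcl5, Cxcl10, Cxcl16, Ccl2 and Ccl8.

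**Figure D2:**
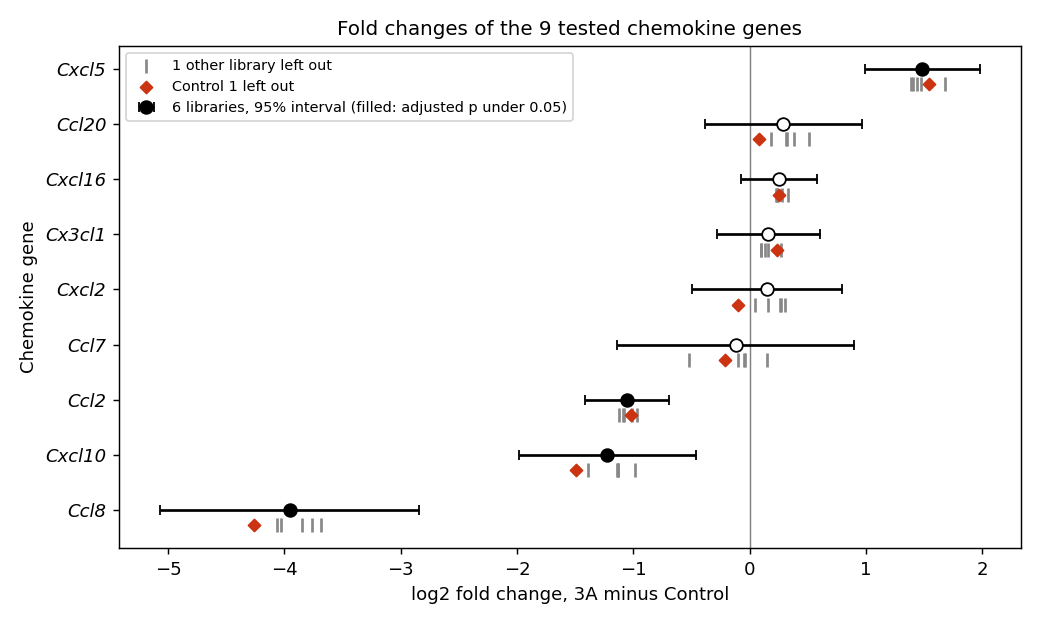
Log2 fold changes (3A minus Control, horizontal axis) of the 9 tested chemokine genes with 95% confidence intervals from edgeR, filled where the adjusted p was under 0.05. Ticks and diamonds show the estimates with 1 library left out; without Control 1 the estimate for Cxcl2 crosses 0 and that for Ccl8 reaches -4.27.

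The windows before the transcription start of 5 of the genes are shown because they hold matches to the motifs searched, or, for Ccl8, the gene with the largest fall among the 9, hold none. Of the 10 genes, 6 had an entry in the RefSeq promoter table (GRCm38.p6). Each window was searched from 250 bases before to 50 after the start, on both strands, for the NF-kappaB motif, for the interferon-stimulated response element core (TTTC, any 2 bases, then TTTC) and for the AP-1 motif TGANTCA. Capitals mark the matches, and the 220 bases directly before the start are printed 5′ to 3′ on the gene's strand. For Cxcl1 and Cxcl2 the RefSeq start lies a short way inside the GENCODE gene. For Cx3cl1, which is not printed, it lies further inside, so most of the window searched there is within the gene.
Cxcl1 (chr5:90891025-90891244, plus strand): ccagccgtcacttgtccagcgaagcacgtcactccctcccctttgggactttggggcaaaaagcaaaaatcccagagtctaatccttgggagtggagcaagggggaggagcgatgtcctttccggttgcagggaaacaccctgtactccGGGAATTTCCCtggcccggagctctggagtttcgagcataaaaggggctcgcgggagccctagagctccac
Cxcl2 (chr5:90903679-90903898, plus strand): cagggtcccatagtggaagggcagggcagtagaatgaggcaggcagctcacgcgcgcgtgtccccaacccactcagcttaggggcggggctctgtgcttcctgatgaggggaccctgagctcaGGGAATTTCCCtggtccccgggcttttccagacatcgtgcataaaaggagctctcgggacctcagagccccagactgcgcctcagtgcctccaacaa
Ccl20 (chr1:83116546-83116765, plus strand): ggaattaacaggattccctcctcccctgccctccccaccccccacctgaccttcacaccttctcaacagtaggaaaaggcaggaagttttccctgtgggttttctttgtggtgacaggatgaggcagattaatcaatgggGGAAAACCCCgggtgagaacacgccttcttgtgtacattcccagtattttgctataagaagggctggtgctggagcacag
Cxcl10 (chr5:92348890-92349109, minus strand): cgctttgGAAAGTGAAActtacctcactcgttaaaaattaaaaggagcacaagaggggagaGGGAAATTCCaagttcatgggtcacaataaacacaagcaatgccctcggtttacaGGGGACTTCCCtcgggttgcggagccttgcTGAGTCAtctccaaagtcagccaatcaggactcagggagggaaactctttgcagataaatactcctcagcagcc
Ccl8 (chr11:82114965-82115184, plus strand): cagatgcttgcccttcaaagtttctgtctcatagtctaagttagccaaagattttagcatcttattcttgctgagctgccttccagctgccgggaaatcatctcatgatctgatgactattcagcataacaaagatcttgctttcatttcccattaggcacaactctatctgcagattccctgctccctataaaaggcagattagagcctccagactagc

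The NF-kappaB motif matched in 4 of these 6 genes, Cxcl1, Cxcl2, Ccl20 and Cxcl10, and in 8.46% of the 32851 promoter windows of this length in the table. In Cxcl1 and Cxcl2 the match was the same stretch, GGGAATTTCCC, read on both strands with a shift of 1 base, and Cxcl10 held a pair of overlapping matches as well as a separate one. The interferon-stimulated element core and the AP-1 motif each matched in Cxcl10 only among the 6, and in 3.44% and 7.81% of all windows. The windows of Ccl8 and Cx3cl1 held no match to any of the 3 motifs. A match is a description of the letters and not of binding, and no match covers this window and these 3 motifs only. Genes with the same NF-kappaB stretch had unlike transcript levels, as the Cxcl1 and Cxcl2 values below show.

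Of Cxcl1, Cxcl2 and Cxcl5, which attract neutrophils, Cxcl5 passed the test. Cxcl5 (chromosome 5, 90759360 to 90761624, plus strand, GRCm38) had 172, 153 and 159 CPM in Control 1, 2 and 3 and 328, 508 and 519 CPM in 3A 1, 2 and 3. Every 3A library lay above every Control library, and 3A 1 was the lowest of the 3. The means were 161 ± 9.71 and 451 ± 107 CPM (SD, n = 3), and edgeR gave a log2 fold change of 1.49 ± 0.21 SE (adjusted p = 0.00503). The call held with each library left out in turn, with log2 fold changes from 1.38 to 1.68.

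Cxcl2 (chromosome 5, 90903871 to 90905938, plus strand) had 23.8, 45.1 and 46.5 CPM across the Control libraries, against 48.9, 36.1 and 42.6 CPM across the 3A libraries. The groups overlapped, and Control 1 was the lowest library of all 6. This is a log2 fold change of 0.15 (edgeR adjusted p = 0.725, with -0.50 to 0.79 as its 95% confidence interval), and it was -0.10 without Control 1. With the mitochondrial mRNA share of each library as a covariate it was 0.78 and was called (adjusted p = 0.0184), so the Cxcl2 comparison depends on Control 1 and on this covariate. Of the 50-base stretches in Cxcl2 transcripts, 5.84% also occur in Cxcl3, a neighbouring paralog, so a small part of their reads could be shared.

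Cxcl1 (chromosome 5, 90891241 to 90893115, plus strand), a close neighbour of Cxcl2 that also signals through Cxcr2, was nearly absent. It had 2, 0 and 7 reads counted across Control 1 to 3, against 3, 5 and 11 across 3A 1 to 3, below the low-count filter. The groups overlapped. The ratio of 3A to Control over the summed counts was 1.64, with a 95% exact binomial interval of 0.709 to 4.13 that covers counting error only.

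The chromosome 11 genes Ccl2 and Ccl8 both fell in 3A. Ccl2 (chromosome 11, 82035571 to 82037453, plus strand) encodes the main ligand of Ccr2. It had 28.8, 29.97 and 25.2 CPM across the Control libraries, against 12.1, 14.0 and 14.3 CPM across the 3A libraries. The libraries of each group lay close together and the groups were far apart. The means were 27.99 ± 2.50 and 13.5 ± 1.23 CPM (SD, n = 3), and edgeR gave a log2 fold change of -1.05 ± 0.15 SE (adjusted p = 0.00580). It was called with each library left out in turn, between -1.13 and -0.97.

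Ccl8 (chromosome 11, 82115185 to 82116799, plus strand) had 58, 123 and 115 reads counted across Control 1 to 3, against 9, 10 and 6 across 3A 1 to 3. These counts correspond to 1.84, 4.20 and 4.88 CPM across the Control libraries, against 0.258, 0.266 and 0.167 CPM across the 3A libraries. Control 1 had the lowest value of its group but still several times that of any 3A library. The log2 fold change, -3.95 ± 0.47 (SE), was called by edgeR (adjusted p = 0.00283), and it ranged from -4.27 to -3.69 with a library left out. Ccl8 passed the low-count filter (about 0.307 CPM in 3 libraries) through the Control libraries alone. With mitochondrial mRNA as covariate its log2 fold change was smaller, -3.06 (adjusted p = 0.00129).

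Ccl7 (chromosome 11, 82045712 to 82047525, plus strand), which lies between Ccl2 and Ccl8, was close to the detection limit in both lines. It had 10, 12 and 9 reads counted across Control 1 to 3, against 7, 19 and 11 across 3A 1 to 3. The groups overlapped, and the log2 fold change of -0.12 (edgeR adjusted p = 0.863, with -1.14 to 0.90 as its 95% confidence interval) leaves changes of up to about 2-fold in either direction undetectable at this depth.

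Leukocytes also make several of these chemokines, so their markers were checked. Of 9 leukocyte markers, Adgre1 had 0 counts in all libraries, and Ptprc, the pan-leukocyte gene, had at most 2 counts in any library. Itgam had at most 3 counts, Lyz2, Cd3e and Cd79a had at most 2, and the 2 markers with higher counts were Cd68 and Csf1r. The summed level of the list was 14.0 to 23.1 CPM in Control and 11.2 to 14.6 CPM in 3A, most of it Cd68, and both Cd68 and Csf1r were lower in 3A on average without passing the test (log2 fold changes -0.62 and -0.82, edgeR adjusted p = 0.117 and 0.124). The part of these 2 genes' source in the chemokine values was not tested. Summed fibroblast markers (2.34 to 3.36 CPM in Control, 2.05 to 3.40 CPM in 3A, with Lum at 0), endothelial markers (at most 0.946 CPM) and melanocyte markers (at most 1.67 CPM, with Dct and Tyr at 0) were low in both groups; the melanosome gene Pmel fell (log2 fold change -1.05, adjusted p = 0.0436). In bulk RNA, fewer cells making a transcript and less transcript per cell cannot be told apart.

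Cxcl10 (chromosome 5, 92346638 to 92348889, minus strand), a classical interferon-induced chemokine gene, had 11.6, 22.9 and 26.6 CPM across the Control libraries, against 10.7, 7.70 and 7.71 CPM across the 3A libraries. The groups did not overlap, but Control 1 lay just above 3A 1. The means were 20.4 ± 7.81 and 8.72 ± 1.75 CPM (SD, n = 3), and edgeR gave a log2 fold change of -1.22 ± 0.32 SE (adjusted p = 0.0460). The call was lost with any library other than Control 1 left out (adjusted p from 0.0716 to 0.176) and in the fit with mitochondrial mRNA as covariate (log2 fold change -0.47, adjusted p = 0.118). Without Control 1 it was -1.50 (adjusted p = 0.000988). Exons of Cxcl10 and Art3 on the opposite strand share 133 bases, and Art3 had at most 8 counts in a library.

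Ccl20 (chromosome 1, 83116766 to 83119167, plus strand) had 2.25, 3.49 and 4.33 CPM across the Control libraries, against 3.95, 3.60 and 4.73 CPM across the 3A libraries. The groups overlapped and Control 1 was lowest, as it was for Cxcl2. The log2 fold change of 0.29 was within the spread between libraries (edgeR adjusted p = 0.492, with -0.39 to 0.97 as its 95% confidence interval).

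The transmembrane chemokine genes did not pass the test. Cxcl16 (chromosome 11, 70453983 to 70459984, minus strand) had 225, 240 and 223 CPM across the Control libraries, against 288, 247 and 286 CPM across the 3A libraries. All 3A libraries lay above all Control libraries, by a small margin in the case of 3A 2. This is a log2 fold change of 0.26 (edgeR adjusted p = 0.229, with -0.07 to 0.58 as its 95% confidence interval). Its exons share 552 bases with Zmynd15 on the opposite strand, which had 35 to 81 counts per library.

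Cx3cl1 (chromosome 8, 94772009 to 94782427, plus strand) encodes fractalkine, the ligand of Cx3cr1. It had 6.50, 6.05 and 5.48 CPM across the Control libraries, against 5.76, 7.35 and 7.05 CPM across the 3A libraries. The groups overlapped, with a log2 fold change of 0.16 (edgeR adjusted p = 0.563, with -0.28 to 0.60 as its 95% confidence interval). Of the 4 genes known to shed these proteins or to regulate the shedding enzyme, 0 were called by edgeR, and 0 had an unadjusted p under 0.05. DESeq2 and limma-voom also called 0 of the 4, while edgeR called 14.9% of all tested genes. Without Control 1, 2 of the 4 were called higher, near the 52.0% of all tested genes called in that fit. The sheddase gene Adam10 had a Control mean of 111 ± 30.1 CPM and a 3A mean of 129 ± 35.5 CPM, and Rhbdf1 had 59.3 ± 20.4 and 69.9 ± 4.95 CPM (SD, n = 3).

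Per exon length, Cxcl5 and Cxcl16 made up most of the chemokine transcripts of both lines. In Control the order was Cxcl5 (86.5 ± 5.21 CPM per kb, SD, n = 3), Cxcl16 (75.9 ± 2.97), Ccl2 (24.6 ± 2.20), Cxcl2 (18.6 ± 6.16), Cxcl10 (9.06 ± 3.47), Ccl8 (7.13 ± 3.13), Ccl20 (2.36 ± 0.736), Cx3cl1 (1.53 ± 0.130), Ccl7 (0.462 ± 0.0596) and Cxcl1 (0.0641 ± 0.0835). The Control libraries of neighbours overlapped for Ccl2 with Cxcl2, Cxcl2 with Cxcl10, Cxcl10 with Ccl8, and Ccl20 with Cx3cl1. In 3A the order was Cxcl5 (242 ± 57.4 CPM per kb), Cxcl16 (90.6 ± 7.60), Cxcl2 (20.6 ± 3.12), Ccl2 (11.8 ± 1.08), Cxcl10 (3.87 ± 0.779), Ccl20 (2.88 ± 0.409), Cx3cl1 (1.71 ± 0.215), Ccl8 (0.451 ± 0.108), Ccl7 (0.422 ± 0.194) and Cxcl1 (0.0934 ± 0.0619). There, overlap between neighbours was limited to Ccl8 with Ccl7.

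The summed level of the 10 genes was 216, 232 and 230 CPM per kb in Control 1, 2 and 3 and 315, 393 and 416 CPM per kb in 3A 1, 2 and 3. All 3A sums lay above all Control sums. As a share of the sum, Cxcl5 was 38.3 ± 3.86% in Control and 64.0 ± 7.20% in 3A, and Cxcl16 was 33.6 ± 1.32% and 24.6 ± 4.95%. Ccl2 took 10.9 ± 1.13% in Control and 3.17 ± 0.170% in 3A, and Ccl8 3.12 ± 1.29% and 0.124 ± 0.0414% (SD, n = 3). Shares sum to a fixed total, so a rise of Cxcl5 lowers the share of every other gene. They are given as a description and were not tested.

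**Figure D3:**
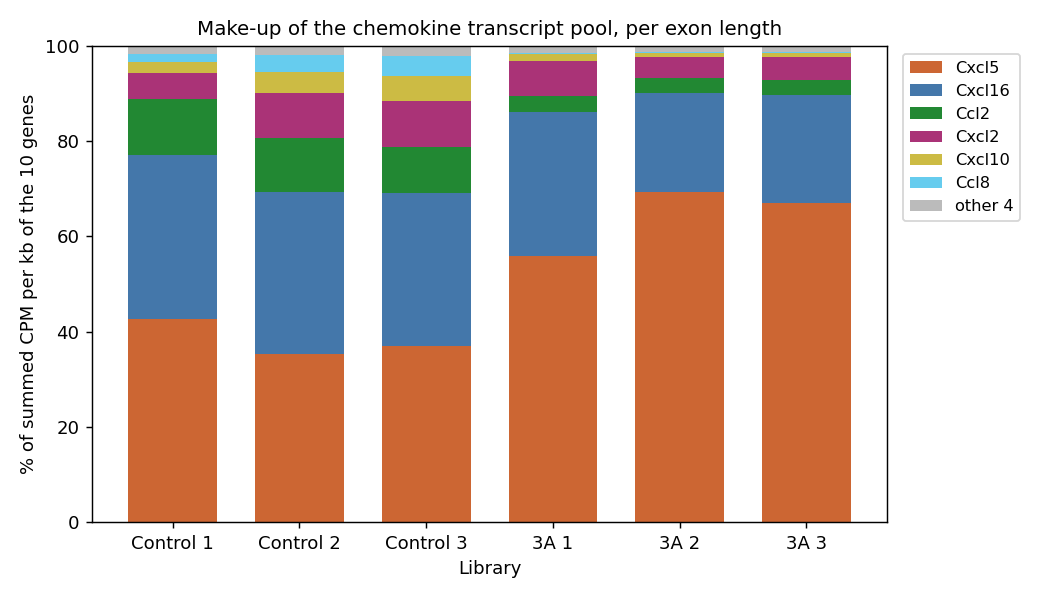
Share of each chemokine gene (vertical axis, % of the summed CPM per kb of the 10 genes) in each library (horizontal axis); Cxcl1, Ccl7, Ccl20 and Cx3cl1 are joined as the other 4. The Cxcl5 share is 35.3% to 42.7% in Control and 55.8% to 69.3% in 3A.

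Variation within a group differed between the genes. In Control the coefficient of variation was 3.92% for Cxcl16, 6.02% for Cxcl5, 8.52% for Cx3cl1 and 8.94% for Ccl2. It was 31.2% for Ccl20, 33.1% for Cxcl2, 38.3% for Cxcl10 and 43.9% for Ccl8, and for these 4 genes Control 1 was the lowest Control library. Control 1 was also the lowest Control library for Ccl7 (12.9%), but not for Cxcl5, Ccl2, Cxcl16 or Cx3cl1. Within Control, the mitochondrial mRNA share was also lowest in Control 1. Within 3A the share was highest in 3A 1 and lowest in 3A 2. There Cxcl2 and Cxcl10 were also highest in 3A 1, but Ccl7 was lowest in it. Ccl8 was highest in 3A 2 and Ccl20 in 3A 3. The share was 1.16% in Control 1 and between 1.23% and 1.58% in 3A. It was 4.16% and 4.69% in Control 2 and Control 3. Share and group are thus partly bound together, and the fit with the share leans on Control 1. With that share as a term in the fit, the log2 fold change went from -3.95 to -3.06 for Ccl8, from 0.29 to 0.82 for Ccl20 (edgeR adjusted p = 0.0755), from 0.15 to 0.78 for Cxcl2, from -1.22 to -0.47 for Cxcl10 and from -0.12 to 0.0017 for Ccl7. It went from 1.49 to 1.37 for Cxcl5 and from -1.05 to -1.12 for Ccl2, both called.

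Most of the genes lie in clusters, and in the CXC cluster called genes differed in direction. In the CXC cluster of chromosome 5, Ppbp, which encodes another ELR chemokine, starts 9.16 kb after Cxcl5. Ppbp fell, from 13.1, 16.2 and 15.3 CPM in Control to 5.73, 7.01 and 5.37 CPM in 3A (edgeR adjusted p = 0.00525 for a log2 fold change of -1.30 ± 0.18 SE), while Cxcl5 rose. Cxcl3, between Ppbp and Cxcl2, had a Control mean of 4.08 ± 0.878 CPM and a 3A mean of 2.85 ± 0.593 CPM (SD, n = 3; adjusted p = 0.221). Pf4, Cxcl15 and Cxcl1 in the same cluster had at most 0.306 CPM in any library.

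In the CC cluster of chromosome 11, Ccl2 and Ccl8 start 79.6 kb apart and fell, whereas Ccl7, Ccl11 and Ccl12 between them were at or near 0. Ccl11, the eotaxin gene, had 0 counts in all 6 libraries, which limits it to 0.0156 CPM (3 counts over all libraries). Cxcl9, next to Cxcl10 and likewise interferon-induced, had 8.05, 14.0 and 18.6 CPM across the Control libraries, against 13.3, 7.78 and 10.5 CPM across the 3A libraries. Its groups overlapped (log2 fold change -0.36, edgeR adjusted p = 0.466). Whether the changes of Cxcl9 and Cxcl10 differ was not tested.

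**Figure D4:**
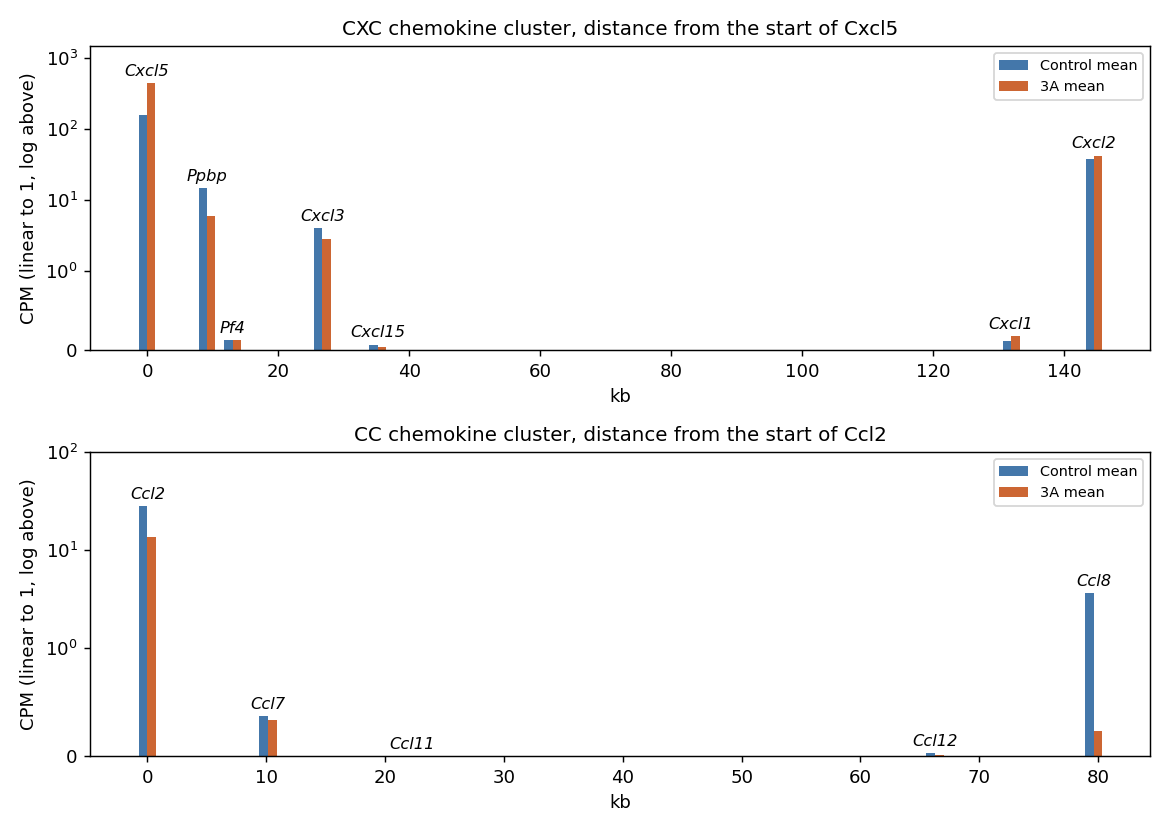
Mean CPM of Control and 3A (bars; linear up to 1 CPM and logarithmic above) against distance in kb from the start of Cxcl5 in the CXC cluster and of Ccl2 in the CC cluster. Cxcl5 is higher in 3A and its neighbour Ppbp lower; Ccl2 and Ccl8 are lower at both ends of the CC cluster.

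Of the 28 other chemokine ligands on the list of related genes, 8 were tested, 1 rose and 2 fell, against 7.52% higher and 7.39% lower over all tested genes. Ccl25, best known as the thymus and gut ligand of Ccr9, rose from 5.90, 5.47 and 5.48 CPM in Control to 31.9, 25.58 and 30.9 CPM in 3A (edgeR adjusted p = 0.000425 for a log2 fold change of 2.39 ± 0.16 SE). All 3A libraries lay far above Control, and the call held under every alternative tried. Ccl25 exons share 204 bases with Elavl1 on the opposite strand, which had 1853 to 4518 counts per library. Elavl1 was higher in every 3A library than in any Control library (means 74.2 and 110 CPM in Control and 3A) without being called (edgeR adjusted p = 0.0651). The part of Elavl1 reads in the Ccl25 values was not tested. Ccl5, the interferon-inducible RANTES gene, had 0.412, 1.16 and 2.21 CPM across the Control libraries, against 0.229, 0.160 and 0.111 CPM across the 3A libraries (edgeR adjusted p = 0.0312 for a log2 fold change of -2.87 ± 0.67 SE). It passed the filter through Control alone, where it is high, so its fall and the counts that hold it are given as a description. Ccl5 was not called with any library other than Control 1 left out (adjusted p from 0.0724 to 0.139 in those fits). Ccl27a, the skin T cell chemokine, had 2.12, 6.46 and 7.05 CPM across the Control libraries, against 4.99, 3.04 and 2.95 CPM across the 3A libraries, and was not called (adjusted p = 0.456). Ccl6 had a Control mean of 0.723 ± 0.157 CPM and a 3A mean of 1.23 ± 0.136 CPM (SD, n = 3), without overlap but not called (adjusted p = 0.117). Leaving out Control 1 gave 1 higher and 3 lower in this list; each other fit with a library left out gave 1 and 1.

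Receptors for these chemokines were scarce. Of 23 receptor genes, 2 were tested and 0 were called by edgeR, with 1 higher and 1 lower at an unadjusted p under 0.05 and 1 lower by DESeq2. Without Control 1 both tested receptors were called, 1 higher and 1 lower, so the 0 depends on that library. In that fit 52.0% of all tested genes were called, against 14.9% with all 6 libraries. Ackr3, a scavenging receptor of Cxcl12, had 8.50, 5.33 and 4.54 CPM across the Control libraries, against 6.96, 14.2 and 14.1 CPM across the 3A libraries (adjusted p = 0.113). Cxcr5, a lymphocyte homing receptor, had 0.983, 5.71 and 7.13 CPM across the Control libraries, against 1.52, 0.640 and 0.362 CPM across the 3A libraries (adjusted p = 0.0794), with Control 1 inside the range of 3A. Cxcr5 exons share 110 bases with Bcl9l on the opposite strand. Cxcr2, the receptor for Cxcl5, had at most 9 counts in a library, and Ccr2, Ccr3, Ccr6, Cxcr4 and Ackr1 had 0 counts in all 6.

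Genes of NF-kappaB, the pathway that induces many chemokines, changed in both directions: of 15 tested, 1 rose and 3 fell, with a median log2 fold change of -0.21, against 14.9% of all tested genes called. Relb, a subunit of the non-canonical pathway, fell from 34.05, 49.1 and 41.7 CPM in Control to 19.6, 13.0 and 12.7 CPM in 3A (log2 fold change -1.46, edgeR adjusted p = 0.00808). Rel, which encodes c-Rel, fell (-0.92, adjusted p = 0.0231), and so did the inhibitor gene Nfkbib (-1.33, adjusted p = 0.0355), whose exons overlap Ccer2 and Sirt2 on the opposite strand. Nfkbiz, encoding the nuclear cofactor IκBζ, rose from 86.1, 53.0 and 63.6 CPM in Control to 129, 156 and 151 CPM in 3A (log2 fold change 1.11, adjusted p = 0.0151). Rela, the main canonical subunit, had a Control mean of 108 ± 22.6 CPM and a 3A mean of 96.9 ± 19.8 CPM (SD, n = 3; adjusted p = 0.626) and was named after its value was seen. Leaving out Control 1 gave 5 higher and 5 lower in this list, with 52.0% of all tested genes called. Leaving out 3A 2 or 3A 3 gave 0 calls in this list, so all 4 calls were lost there, and the other fits with a library left out gave at most 1 and 3.

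Among 21 tested genes for inducing cytokines and their receptors, 5 rose and 5 fell, with a median log2 fold change of 0.01, against 14.9% of all tested genes called. Il1a, Il1b and the receptor gene Il1r1 rose, while Il1rn, which encodes the interleukin-1 receptor antagonist and was named after its value was seen, fell (log2 fold change -0.67, edgeR adjusted p = 0.0398). Il1a had 384, 452 and 542 CPM across the Control libraries, against 2131, 1616 and 2105 CPM across the 3A libraries (log2 fold change 2.09, edgeR adjusted p = 0.00136). Il1b had 7, 2 and 1 reads counted across Control 1 to 3, against 55, 76 and 63 across 3A 1 to 3. Its log2 fold change was 3.90 (edgeR adjusted p = 0.00411). Il1b passed the filter through 3A alone, where it is high, so its rise and the counts that hold it are given as a description. The log2 fold change of Il1r1 was 1.13 (adjusted p = 0.0123), and Ifngr1, a chain of the interferon-γ receptor, fell (-0.92, adjusted p = 0.0108). Il1a and Il1b exons overlap antisense noncoding genes. Tnf, named after its value was seen, had at most 8 counts in a library and was not tested. Leaving out Control 1 gave 8 higher and 6 lower, with 52.0% of all tested genes called. The other fits with a library left out gave 2 to 5 higher and at most 2 lower. Without Control 2, 3A 2 or 3A 3 there were 0 lower, so the falls of Ifngr1 and Il1rn were not called there. Without Control 2, Control 3 or 3A 3 there were 2 higher, so the rises of Il1a, Il1b and Il1r1 were not all called there.

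Of the 6 interferon response factors tested, 2 fell and 0 rose, against 7.39% lower and 7.52% higher over all tested genes. Irf7 fell from 180, 256 and 257 CPM in Control to 88.3, 68.8 and 72.8 CPM in 3A (log2 fold change -1.59, edgeR adjusted p = 0.00325), and Stat2 fell by 0.53 on the log2 scale (adjusted p = 0.0365). Irf7 exons share 45 bases with Phrf1 on the opposite strand. Irf1, which binds interferon-induced promoters and was named after its value was seen, was not called (adjusted p = 0.525). Without Control 1, where 52.0% of all tested genes were called, there were 3 lower. Without any other library there was 1, so Irf7 and Stat2 were not both called there. Of the 7 proteins binding AU-rich elements, through which chemokine mRNAs are degraded, 1 fell, a share near the 14.9% called over all tested genes. Zfp36, encoding tristetraprolin, had 38.4, 61.2 and 67.0 CPM across the Control libraries, against 32.8, 21.9 and 20.4 CPM across the 3A libraries (log2 fold change -1.15, adjusted p = 0.0345); its exons share 125 bases with the antisense gene Gm44710. Without Control 1 this list had 2 higher and 2 lower. It had 0 calls without Control 2, Control 3, 3A 2 or 3A 3, so the fall of Zfp36 was not called there, and 1 call without 3A 1. The part of these regulators in the chemokine values was not tested.

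**Figure D5:**
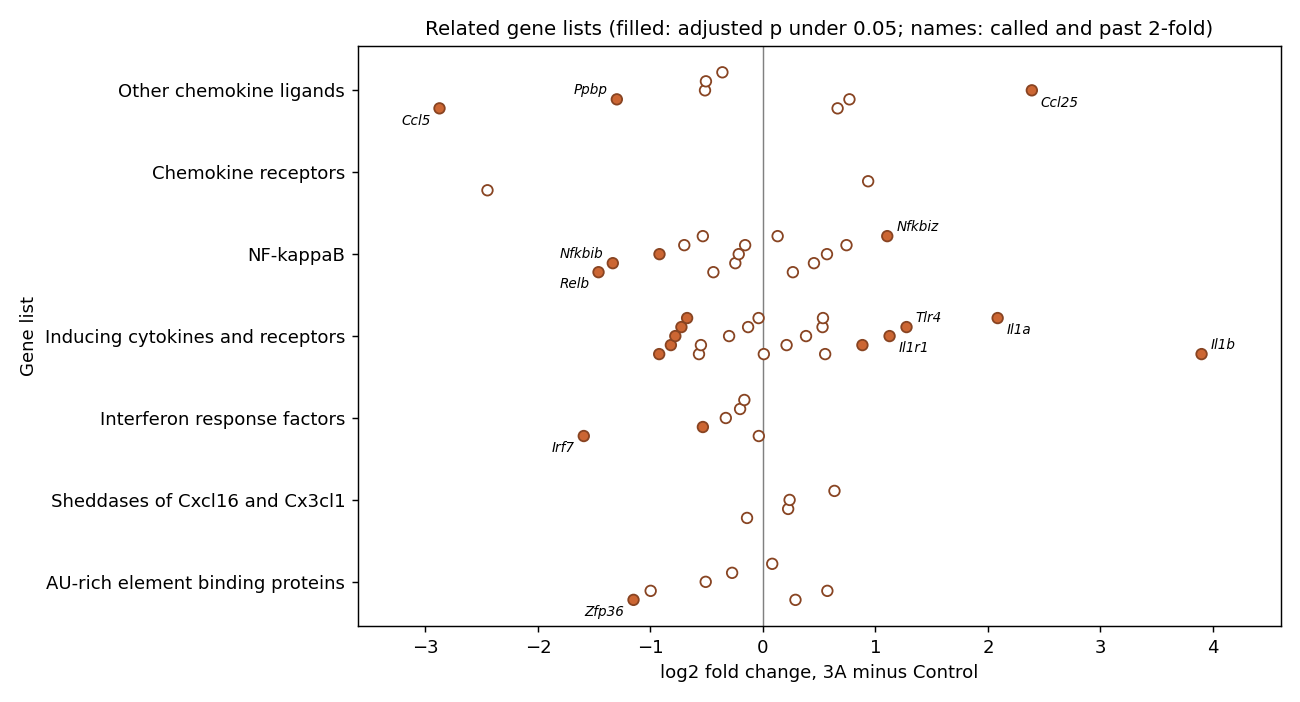
Log2 fold changes (3A minus Control, horizontal axis) of the tested genes in 7 related lists (vertical axis), filled where the edgeR adjusted p was under 0.05. Called genes lie on both sides of 0 in the ligand, NF-kappaB and inducing cytokine lists; Ccl25, Il1a and Il1b are the highest of those named and Ccl5 the lowest.

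Over the 6 libraries, the genes most like each chemokine gene in log2 CPM, among 9659 candidates with a mean of at least 5 CPM, were Cfap43 and Gstcd for Cxcl5 (Pearson r = 0.998 and 0.996). They were Clstn1 and Vegfd for Ccl8 (0.9996 and 0.999), Itgb5 and Spint1 for Ccl2 (0.998 and 0.997), and Cenpu for Cxcl10 (0.999). For Cxcl2 they were Nit2 and Tmem40 (0.998 and 0.993), and for Ccl20 Zfp991 and Lin9 (0.989 and 0.985). For Ccl7 they were Alkbh1 and Psapl1 at 0.820 and 0.811. The values were picked as the highest of many candidates over 6 libraries that fall into 2 groups, so they only describe the pattern.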

How the data were processed

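RNA from 3 Control and 3 3A libraries was sequenced by the submitters, who deposited whole-number read counts per mouse gene ID for all 6 libraries. Per the submitters' processing notes, Trim Galore, featureCounts, edgeR and limma were used and the builds named are mm10, GRCh38 and hg38. Which aligner, annotation and strand mode produced the counts was not given in the sources used here; antisense overlap therefore cannot be resolved. Symbols, exon lengths and positions came from GENCODE M21 (GRCm38), which matched 49056 of the 49315 IDs.

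Counts were filtered with filterByExpr, scaled by TMM and tested with edgeR 4.0.16 in R 4.3.3 (glmQLFit and glmQLFTest, group as the only term), with Benjamini-Hochberg adjustment over all 13704 tested genes. Alternatives were other scalings, filters and tests (DESeq2 1.42.0, limma-voom in limma 3.58.1), a replicate block, a mitochondrial covariate, a test beyond 1.5-fold and each library left out. The test was tried on simulated counts. Named were all 10 chemokine genes, other ligands and receptors at 1 CPM or more in either group, up to 4 called genes per further list, or 2 abundant genes where none was called. The genes and lists were chosen with earlier results of these data known. Intervals on counts cover counting error only. A few genes that these rules or lists include are not reported here.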

Additional observations from a re-analysis of the deposited data

How the results depend on the processing

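Against 2044 genes called by edgeR over all tested genes, DESeq2 called 3565, the test beyond 1.5-fold 836 and the fit with a replicate block 288. With 1 library left out the count ran from 664 to 7441, the highest without Control 1, and it was 845 without Control 2, 987 without Control 3, 1294 without 3A 1, 664 without 3A 2 and 670 without 3A 3. Of the chemokine genes, 4 were called in the main analysis and 3 to 4 with 1 library left out. With the replicate block 1 was called, Ccl8 (log2 fold change -3.86, adjusted p = 0.0424), while Cxcl5 (0.0719), Ccl2 (0.0894) and Cxcl10 (0.218) were not. Ccl8 passed the low-count filter through the Control libraries alone, so its call is given as a description. Same-numbered libraries deviated in opposite directions from their group means (r = -0.66, -0.42 and -0.37). With 3 libraries per group, an outlying library can set these signs. Whether the numbers pair the samples is therefore not settled. Cxcl10 also missed the threshold with upper quartile scaling (adjusted p = 0.0506), limma-voom (0.0622), the test beyond 1.5-fold (0.181) and the mitochondrial covariate (0.118). The log2 fold change of Cxcl2 ran from -0.096 (without Control 1) to 0.30 and that of Ccl7 from -0.52 to 0.15 (without 3A 1) with 1 library left out, so the direction reversed; Ccl7 also reversed with the mitochondrial covariate (0.0017). The cause was not tested. Depth limited Cxcl1 and Ccl7, with at most 19 counts in a library.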
